A study of Homo sapiens with 3 samples.

Results

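Aurora A, PBK and the kinases and spindle proteins that act with them were examined in PANC-1 cells, an established human line from a pancreatic ductal carcinoma. The set held 8 genes, AURKA, TPX2, BORA, MASTL, PBK, MELK, NEK2 and HMMR, of 19699 genes that could be named on the arrays. These genes were chosen by name, with earlier results from these same arrays in view, and every probe that matched them was taken. Their differences between the arrays are therefore given as a description. The 8 genes had 9 probes, of which 2 belonged to NEK2, and each probe was a single spot.

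Total RNA from control cells, cantharidin-treated cells and okadaic acid (OA)-treated cells was hybridised to 3 single-colour Agilent arrays, 1 for each group. Cantharidin, the blister-beetle toxin, and OA, a marine polyether toxin, both inhibit protein phosphatase 2A (PP2A). Per the labels each agent was given at 20 µM for 24 h, although the wording of the treatment note ties the dose most directly to cantharidin. Control cells received neither agent, the labels name no vehicle, and all cells were of the same line in the same serum-supplemented medium.

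Aurora A is a serine/threonine kinase that matures centrosomes and builds the bipolar spindle. TPX2 brings it to spindle microtubules and holds it in its active form, and BORA serves it as a cofactor when it switches on Polo-like kinase 1 before mitosis. MASTL, also called Greatwall, keeps the B55 form of PP2A inhibited during mitosis, which links this set of genes to the phosphatase that both agents inhibit. PBK and MELK are kinases of dividing cells, NEK2 separates the centrosomes, and HMMR is a microtubule-binding protein of the spindle poles. Transcripts of many of these genes are known to peak in G2 and mitosis, under promoters that often hold CCAAT boxes and the cell cycle genes homology region (CHR).

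The promoter sequences of 4 of these genes are shown because they hold different sets of those motifs. NEK2, HMMR and MELK were lower under both agents, whereas BORA was lower under cantharidin and higher under OA. Whether the motifs bear on these differences was not tested. Each is the stretch of 200 bases before the RefSeq transcription start on GRCh38.p14, written 5′ to 3′ on the strand of the gene. Capitals mark CCAAT or its reverse complement ATTGG, and the CHR forms TTTGAA (reverse complement TTCAAA) and TTCGAA (its own reverse complement). NEK2 lies at chr1:211675622-211675821 on the minus strand, HMMR at chr5:163460432-163460631 on the plus strand, MELK at chr9:36572695-36572894 on the plus strand and BORA at chr13:72727723-72727922 on the plus strand.
NEK2: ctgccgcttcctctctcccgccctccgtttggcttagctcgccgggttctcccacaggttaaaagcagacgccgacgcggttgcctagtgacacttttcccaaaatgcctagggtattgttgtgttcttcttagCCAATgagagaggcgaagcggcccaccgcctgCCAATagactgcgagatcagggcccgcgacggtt
HMMR: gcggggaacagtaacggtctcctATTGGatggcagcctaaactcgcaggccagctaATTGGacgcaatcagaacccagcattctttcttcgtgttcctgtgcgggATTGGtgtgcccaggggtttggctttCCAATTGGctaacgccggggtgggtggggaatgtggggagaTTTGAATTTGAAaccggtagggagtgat
MELK: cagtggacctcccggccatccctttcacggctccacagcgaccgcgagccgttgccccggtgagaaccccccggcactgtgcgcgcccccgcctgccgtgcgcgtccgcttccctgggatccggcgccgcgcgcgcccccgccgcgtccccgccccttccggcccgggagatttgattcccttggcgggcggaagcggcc
BORA: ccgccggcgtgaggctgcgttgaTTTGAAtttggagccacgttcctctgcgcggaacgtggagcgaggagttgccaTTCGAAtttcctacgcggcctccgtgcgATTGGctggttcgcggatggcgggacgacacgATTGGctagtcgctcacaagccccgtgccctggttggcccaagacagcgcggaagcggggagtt

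The RefSeq promoter table held 5 of the 8 genes, NEK2, HMMR, MELK, MASTL and BORA, and AURKA, TPX2 and PBK had no entry. Motifs were counted in a window of 300 bases, from 250 before to 50 after the start, and no CHR variants other than TTTGAA and TTCGAA were searched. NEK2 had 2 CCAAT boxes and neither CHR form. HMMR had 5 CCAAT or ATTGG matches, of which a pair overlapped in the run CCAATTGG, and 2 TTTGAA matches that abutted each other at positions -28 and -22. BORA had 2 ATTGG matches, 1 TTTGAA and 1 TTCGAA. MASTL had 2 TTTGAA or TTCAAA matches, at -248 and 3, and no CCAAT, and MELK had none of these motifs in its window. CCAAT on either strand occurred in 3 of the 5 promoters and in 34.6% of all 35116 promoters of the same length, and at least 2 matches occurred in 3 of the 5 and in 10.8% of all. TTTGAA occurred in 3 of the 5 and in 15.2% of all, and TTCGAA in 1 of the 5 and in 1.45% of all. With 5 promoters these shares only describe the letters present, and a match is not a measured binding site.

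After outlier spots were left out, 34041 probes were used, and 23071 to 25103 of them were well above background, which is the flag the scanner software gives a spot that clearly exceeds its local background. The lowest intensity with that flag was between 21.9 and 58.0 on the 3 arrays. All differences below are log2 values after each array had been scaled to its 75th percentile, which lay at intensities of 713 to 936, and a gene is called lower or higher when it differed by at least 1.5-fold. With 1 array per group no test was possible, so the error given is the SD of spot noise, taken from replicate spots of similar brightness within the same array, and variation between cultures was not measured. Array and group cannot be told apart. KRT7, KRT8, KRT18 and KRT19, keratins of duct-like epithelial cells, were well above background on each array, with intensities from 2503 to 193320. Of 6 markers of other cell types, PECAM1 (endothelium) and ALB (liver) were well above background on no array and PTPRC (leukocytes) and CD3E (T cells) on every array, at 223 to 405. HBB (red cells) was at 32.9 in control cells, where it was not well above background, and at 185 under cantharidin and 62.0 under OA. COL1A1 (fibroblasts) was at 528 in control cells and not well above background under cantharidin (16.6) or OA (35.7). The part of such cells or transcripts in the differences below was not tested.

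The first question was how these genes differed between cantharidin-treated and control cells. Under cantharidin 7 of the 8 genes were at least 1.5-fold lower and none was higher, whereas 34.1% of the 16644 genes compared were lower and 27.5% higher. The median of the 8 differences was -2.15, and that of all genes compared was -0.16. Under OA, 5 of the 8 were lower, 1 was higher and 2 lay within 1.5-fold, beside 28.8% lower and 28.1% higher among 16166 genes. The median of the 8 was -1.93 under OA and that of all genes 0.01. Because the genes were chosen with these contrasts known, the counts are not read against these shares. In bulk RNA, fewer cells in the stage that expresses a gene and less of its RNA per cell cannot be told apart.

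**Figure D1:**
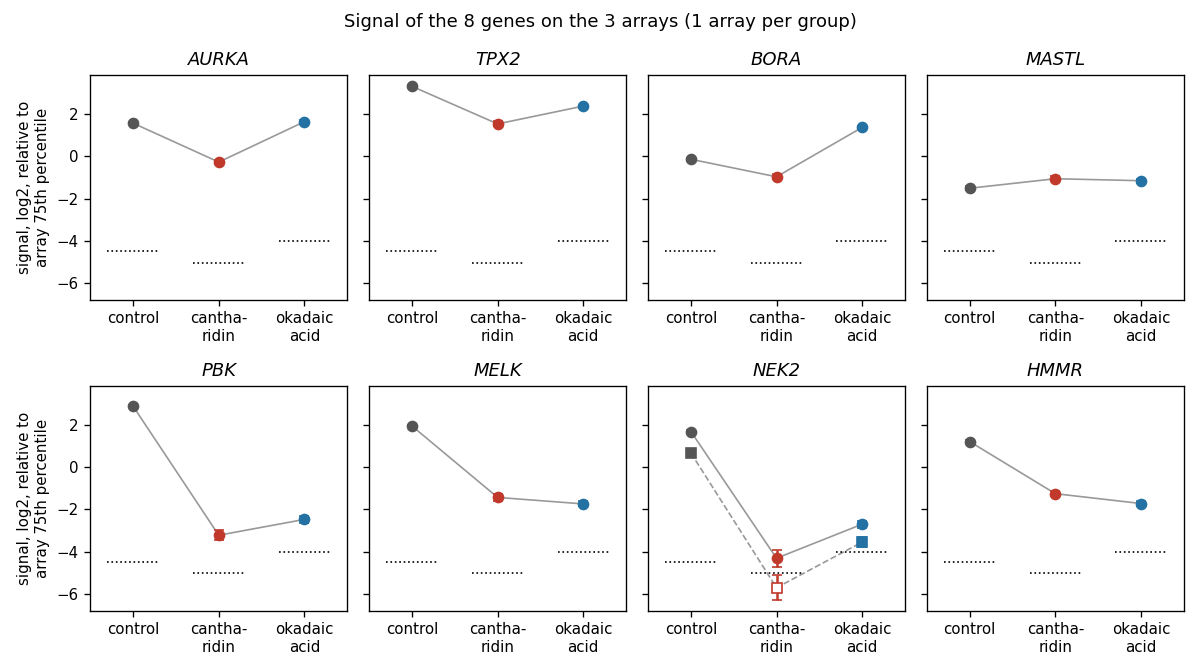
Scaled signal of each gene in control, cantharidin-treated and OA-treated cells, in log2 units relative to the 75th percentile of the array, with bars for the SD of spot noise and dotted lines at the lowest signal well above background on each array. The squares are the second NEK2 probe, open where it was not well above background. AURKA and BORA form a V with the cantharidin array lowest, while PBK, MELK, NEK2 and HMMR are low on both treated arrays.

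AURKA, the Aurora A kinase itself, had an intensity of 2324 in control cells, 590 under cantharidin and 2912 under OA. Only the cantharidin array was low, and the OA array was close to control. The difference from control was -1.84 ± 0.13 (SD of spot noise) under cantharidin, a 3.58-fold fall, and 0.07 ± 0.10 under OA, which is smaller than the spot noise. Between the agents AURKA was 3.76-fold higher under OA (1.91 ± 0.14).

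TPX2, the spindle activator of Aurora A, had an intensity of 7775 in control cells, 2062 under cantharidin and 4859 under OA. Both treated arrays were below control and the OA array lay between the other two. TPX2 fell 3.43-fold under cantharidin (-1.78 ± 0.13) and 1.91-fold under OA (-0.93 ± 0.09). TPX2 fell by 0.06 less than AURKA on the log2 scale under cantharidin, a gap smaller than the spot noise. Under OA, by contrast, TPX2 was lower and AURKA was not.

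BORA, the cofactor for activation of Polo-like kinase 1, had an intensity of 712 in control cells, 364 under cantharidin and 2414 under OA. The cantharidin array was below control and the OA array above it, a pattern no other member showed past 1.5-fold. BORA fell 1.78-fold under cantharidin (-0.83 ± 0.14) and rose 2.84-fold under OA (1.51 ± 0.11). Set against TPX2, the change of BORA was higher by 0.95 under cantharidin and by 2.44 under OA. The OA array exceeded the cantharidin array by 5.05-fold (2.34 ± 0.15), the widest gap between the agents among the 8 genes. The BORA promoter shown above holds both CHR forms and a pair of ATTGG boxes.

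MASTL, the Greatwall kinase, had an intensity of 276 in control cells, 342 under cantharidin and 421 under OA. The differences were 0.45 ± 0.17 under cantharidin and 0.36 ± 0.14 under OA, within 1.5-fold in each case. MASTL was the only member of the set that was not called in any of the 3 comparisons, and its values on the treated arrays differed by -0.09 ± 0.16. Under cantharidin its change stood 2.29 above that of AURKA.

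PBK, a kinase of proliferating cells also known as TOPK, had an intensity of 5771 in control cells, 76.4 under cantharidin and 168 under OA. Both treated arrays were far below control, yet the signal stayed well above background on each, at 3.49 and 2.90 times the lowest such signal. The fall was 68.7-fold under cantharidin (-6.10 ± 0.25) and 40.9-fold under OA (-5.35 ± 0.17). In the order of all genes from the most lowered, PBK stood at place 8 of 16644 under cantharidin and place 9 of 16166 under OA.

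NEK2, the kinase that loosens the linker between centrosomes, had an intensity of 2521 in control cells, 35.9 under cantharidin and 144 under OA on its brighter probe. The cantharidin value was 1.64 times the lowest signal well above background, so the size of this fall rests on a dim spot. NEK2 fell 63.7-fold under cantharidin (-5.99 ± 0.41) and 20.9-fold under OA (-4.39 ± 0.17). The other NEK2 probe gave 1247 in control cells, 13.7 under cantharidin, where it was not well above background, and 80.1 under OA. By that probe the fall was at least 51.8-fold for cantharidin, and it was 18.6-fold (-4.22) for OA. The probes thus gave the same direction for each agent. NEK2 ranked at place 9 under cantharidin and place 36 under OA among all genes.

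MELK, a kinase of the AMPK-related family that is abundant in dividing cells, had an intensity of 3017 in control cells, 264 under cantharidin and 280 under OA. The treated arrays were nearly level with each other and far below control. MELK fell 10.4-fold under cantharidin (-3.38 ± 0.16) and 12.8-fold under OA (-3.68 ± 0.13). Its rank from the most lowered gene was 323 under cantharidin and 108 under OA. Its promoter window held neither CCAAT nor either CHR form searched, whereas that of NEK2 held CCAAT only and that of HMMR held CCAAT and TTTGAA.

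HMMR, which anchors microtubules at spindle poles, had an intensity of 1809 in control cells, 298 under cantharidin and 284 under OA. Like MELK it was low to a similar extent on both treated arrays. HMMR fell 5.51-fold under cantharidin (-2.46 ± 0.12) and 7.61-fold under OA (-2.93 ± 0.13). HMMR is known to direct TPX2 to the spindle, and the change of HMMR lay below that of TPX2 by 0.69 on the log2 scale under cantharidin and by 1.99 under OA. Its promoter window held the most motif matches of the 5.

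**Figure D2:**
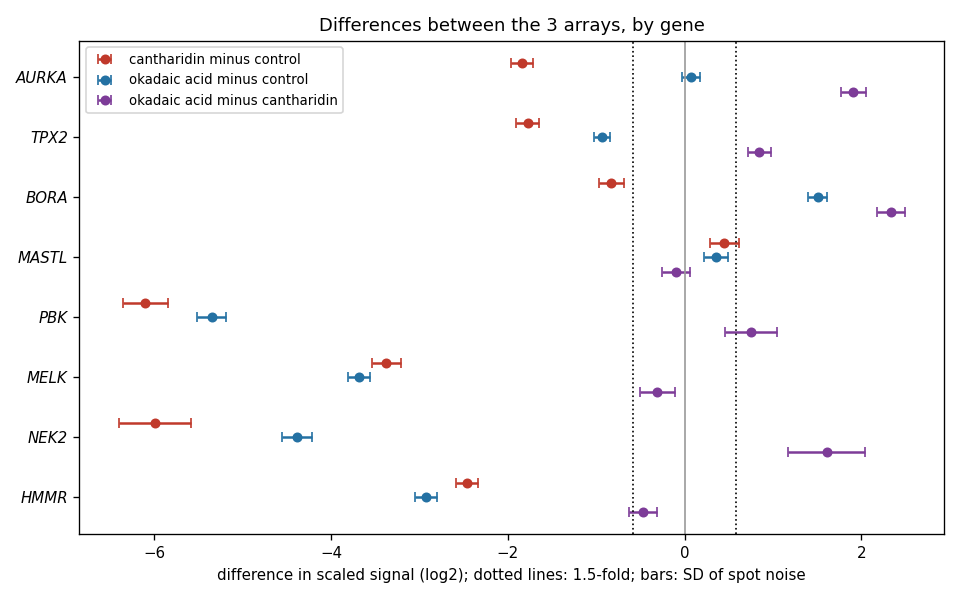
Log2 differences of the 8 genes for cantharidin minus control, OA minus control and OA minus cantharidin, with bars for the SD of spot noise and dotted lines at 1.5-fold. PBK, NEK2, MELK and HMMR lie between -6.10 and -2.46 for cantharidin and between -5.35 and -2.93 for OA, while AURKA lies at -1.84 and 0.07.

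The agents were next compared with each other at the labelled dose and time, a comparison that does not use the control array. Of the 8 genes, 5 were at least 1.5-fold higher under OA than under cantharidin and none was lower, beside 29.5% higher and 22.3% lower among 16200 genes. The median of the 8 was 0.80 and that of all genes 0.13. BORA at 2.34 and AURKA at 1.91 had the widest gaps on the log2 scale, and TPX2 was at 0.84. NEK2 was 3.05-fold higher under OA (1.61 ± 0.44), and its other probe at least 2.78-fold higher. The size of this NEK2 gap depended on the processing and rests on a dim cantharidin spot. It stayed past 1.5-fold in each of 12 alternatives, but ranged from 0.64, with normexp, to 2.16. PBK was 1.68-fold higher (0.75 ± 0.30), but this call depended on the processing. It was lost with normexp (0.41), quantile normalization (0.57) and centring within blocks of the array (0.51), and only just reached with centring on the array median (0.60). It was kept in 9 of 12 processing alternatives, but these include the changes of filter, probe and floor, which could not move the value of PBK. MELK (-0.31 ± 0.19), HMMR (-0.47 ± 0.16) and MASTL (-0.09 ± 0.16) lay within 1.5-fold, which with 1 array each does not show that the agents act alike on them.

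**Figure D3:**
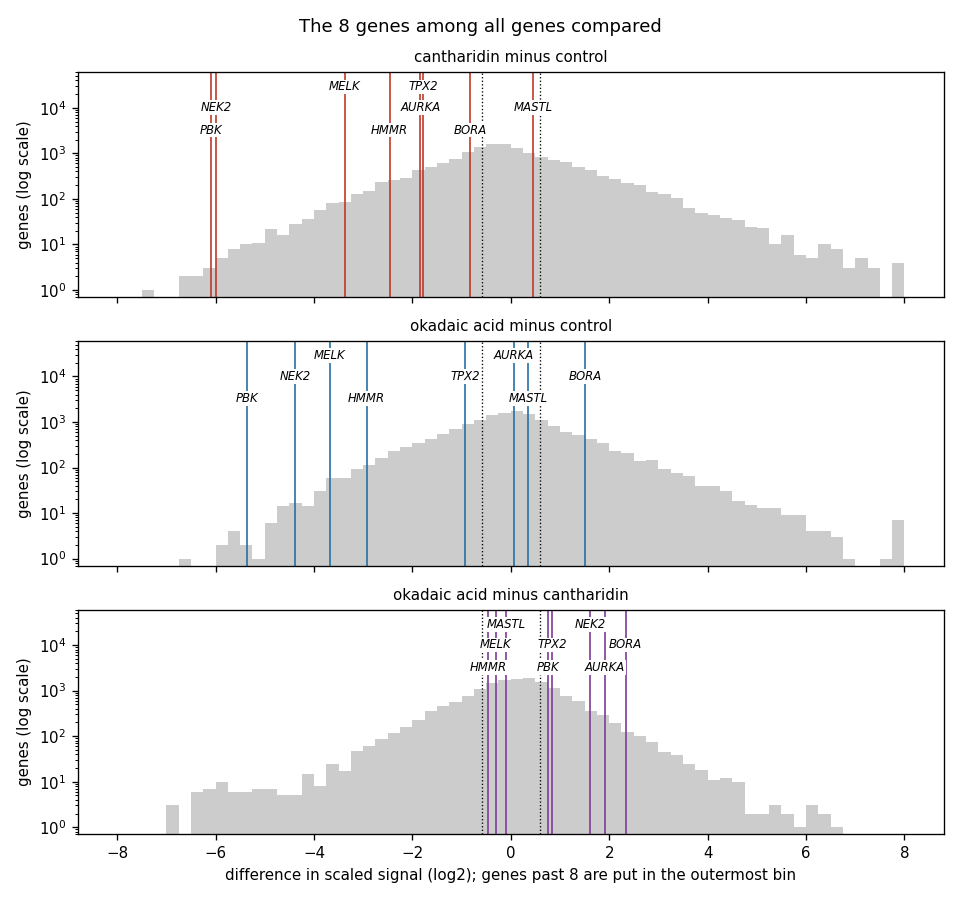
Histograms of the log2 difference of all genes compared (grey, log scale of genes per bin) for each pair of arrays, with a vertical line for each of the 8 genes and dotted lines at 1.5-fold. PBK and NEK2 lie in the far lower tail of the cantharidin comparison at -6.10 and -5.99, and BORA lies above zero under OA at 1.51.

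Genes that work with these 8 were read from a list of 73 genes in 10 roles, of which 72 had a probe. Under cantharidin 29 of 69 were lower and 23 higher, with a median of -0.37, and under OA 28 of 67 were lower and 15 higher, with a median of -0.20. The shares of all genes given above were 34.1% lower and 27.5% higher for cantharidin and 28.8% and 28.1% for OA. For OA against cantharidin, 16 of 68 were lower and 20 higher, with a median of 0.12, or 0.22 with dim signals set to the floor of their array, which left the other medians as they were. The list was drawn up with earlier results of these arrays known. Each gene was counted by its brightest probe, and where a gene had several probes they did not always agree. Within each role the genes with the widest and the narrowest cantharidin difference are given.

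The chromosomal passenger complex, which corrects kinetochore attachments around Aurora B, had 4 of its 5 genes lower under each agent. AURKB, its kinase, had an intensity of 3567 in control cells, 81.0 under cantharidin and 134 under OA, which is a fall of 40.0-fold (-5.32) and 31.8-fold (-4.99). The change of AURKA was 3.48 above that of AURKB under cantharidin and 5.06 above it under OA. AURKC, the Aurora kinase best known from germ cells, stood apart with 87.5, 122 and 132 in the same order, a rise of 0.61 under cantharidin and a difference of 0.33 under OA.

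Among 7 partners and substrates of Aurora A, 4 were lower and 2 higher under cantharidin, and 3 were lower and 1 higher under OA. KIF11, the kinesin that pushes spindle poles apart, had an intensity of 775 in control cells, 101 under cantharidin and 336 under OA. It fell by 2.80 and 1.46 on the log2 scale, and as for AURKA the cantharidin array was the lowest. NUMA1, which gathers microtubule ends at the poles, was flat, with differences of -0.02 and -0.05. The 4 Polo-like kinases split evenly, with 2 lower and 2 higher under each agent. PLK1, the mitotic kinase that Aurora A and BORA activate, had an intensity of 2247 in control cells, 237 under cantharidin and 453 under OA. It fell 8.61-fold (-3.11) and 5.92-fold (-2.56), and its other probe gave -1.93 and -2.01. PLK4, the centriole duplication kinase, fell from 116 to signals not well above background, at least 4.83-fold under cantharidin and at least 2.39-fold under OA. PLK3, a stress-responsive member of the family, rose 3.29-fold under cantharidin and 6.48-fold under OA, from 3707 to 11075 and 28665. Thus BORA and PLK1 moved in opposite directions under OA and in the same direction under cantharidin.

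NEK2 was compared with the other NEK kinases, which act in cilia, centrosomes and checkpoint responses. Of 9 compared under cantharidin, 1 was lower and 4 were higher, and of 8 under OA, 3 were lower and none higher. NEK8, a kinase of the cilium, rose 17.2-fold under cantharidin, from 56.5 to 885, and under OA it was at 14.8 and not well above background, at least 20.0-fold below the cantharidin array. Against control its fall under OA was at least 1.16-fold, so its place among the 3 counted lower rests on a dim signal. NEK11, a checkpoint kinase, had differences of -0.01 and 0.16. The centrosome linker that NEK2 takes apart had 3 of 4 genes lower and 1 higher under each agent. CROCC (rootletin), a fibre of that linker, rose 2.38-fold under cantharidin and 2.89-fold under OA, from 877 to 1895 and 3030. CEP250 (C-Nap1), which docks the fibres and is a NEK2 substrate, fell 1.62-fold and 2.24-fold, from 761 to 427 and 405. CNTLN, counted among the linker genes lower under cantharidin (-0.75 on its brightest probe), had another probe at 4.48, so its direction there is open.

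MASTL acts through the Greatwall branch of PP2A, in which it phosphorylates ENSA and ARPP19 so that they inhibit PP2A bound to a B55 subunit. Of its 9 genes measured, 1 was lower and 4 were higher under cantharidin, and 2 were lower and 3 higher under OA. These counts use the brightest probe of each gene. The 1 counted lower under cantharidin was ENSA, which was also among the 3 counted higher under OA. ENSA had intensities of 1703, 612 and 3416 in control, cantharidin and OA cells, differences of -1.34 and 0.75, but its probes disagreed. Their lowest and highest differences were -1.34 and 0.14 for cantharidin, and -1.14 and 0.75 for OA. ARPP19 had differences of -0.26 and 0.07 on its brightest probe and of -0.66 and -1.02 on another. No direction is therefore given for ENSA, nor for ARPP19 under OA. PPP2R2A, the B55 alpha subunit, rose 1.81-fold under cantharidin and fell 1.71-fold under OA, with intensities of 2343, 3858 and 1637. PPP2R2C, another B55 subunit, was level under cantharidin (-0.02) and fell 2.75-fold under OA, with intensities of 456, 409 and 198.

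All 3 partners of HMMR on the list were lower under each agent. BRCA1, which with BARD1 limits HMMR activity at centrosomes, fell 3.29-fold under cantharidin, from 199 to 54.9, and under OA, at 59.9 and not well above background, it was at least 4.01-fold lower. FAM83D, which is recruited to the spindle with HMMR, fell 2.21-fold and 1.82-fold, from 3532 to 1452 and 2312. Of 5 genes for the degradation of these kinases, 2 were lower and 3 higher under cantharidin, and 1 was lower and 3 higher under OA. CDC20, the mitotic activator of the anaphase-promoting complex, fell 3.82-fold and 1.73-fold, from 6010 to 1428 and 4148. FZR1 (Cdh1), the activator that marks Aurora A and TPX2 for destruction at mitotic exit, fell 1.62-fold under cantharidin (-0.70) and differed by -0.40 under OA.

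Of 11 genes that control the transcription of G2 and mitotic genes, 5 were lower and 3 higher under cantharidin and 4 were lower and 3 higher under OA. FOXM1, an activator of that programme, had an intensity of 1463 in control cells, 157 under cantharidin and 126 under OA, a fall of 8.48-fold (-3.08) and 13.9-fold (-3.80). E2F4, a repressor in the DREAM complex, had differences of 0.12 and 0.19. NFYA, counted among the genes lower under cantharidin (-2.35 on its brightest probe), had another probe at 0.48. LIN9, within 1.5-fold of control under each agent on its brightest probe (0.14 and 0.19), had another probe at -2.65 and -1.70. The AMPK-related kinases, the family of MELK, had 4 of 12 lower and 3 higher under cantharidin and 3 of 11 lower and 2 higher under OA. SIK3, which relays metabolic signals, rose 8.51-fold under cantharidin, from 219 to 1689, and differed by 0.30 under OA. MARK4, a microtubule affinity regulating kinase, had differences of -0.14 and 0.29 on its brightest probe, but its probes reached from -0.90 to 0.31 for cantharidin and from -0.74 to 0.29 for OA. MARK2, counted among the 4 AMPK-related genes lower under cantharidin (-1.15 on its brightest probe), had another probe at 1.77. By the brightest probes, none of those 4 genes reached the fall of MELK, since the lowest value of that list was -1.65. PRKAA1, which is not among those 4 (0.43 under cantharidin on its brightest probe), had another probe at -3.08.

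**Figure D4:**
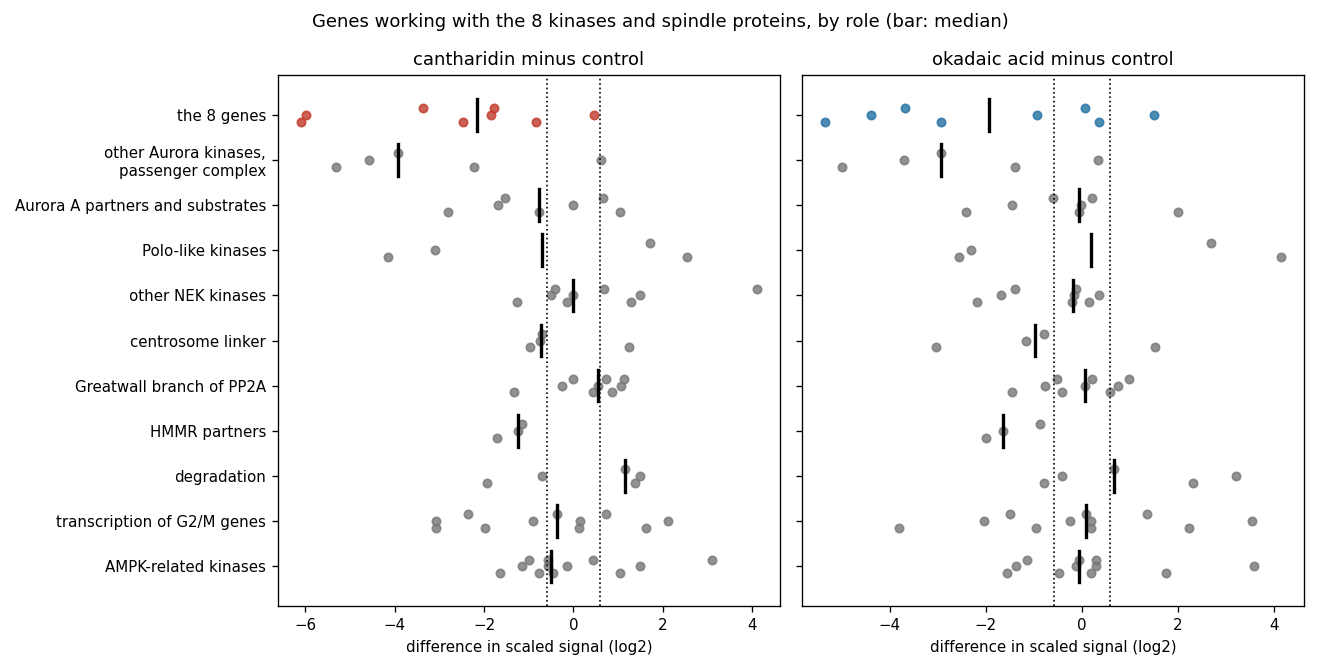
Log2 differences from control of the 8 genes (coloured) and of the listed genes in each role (grey), for cantharidin and OA, with a black bar at the median of each role and dotted lines at 1.5-fold. The passenger complex has the lowest role medians, -3.93 for cantharidin and -2.92 for OA, and genes with a signal not well above background on 1 array are plotted at their measured value.

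To find genes whose pattern was most like that of the set, the pair of differences from control of each gene was compared with the median pair of the 8 genes, over the 3 arrays. Among 14222 genes well above background on all 3 arrays, RAC3 was closest, with differences of -2.17 and -1.97. KLRG1, HSD11B1L, ADCY6 and LACTB2 followed, with cantharidin differences from -2.16 to -2.09 and OA differences from -1.99 to -1.87. No single gene of the set had this median pair itself, and the differences of the 8 spanned 6.55 log2 units under cantharidin and 6.86 under OA.

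The differences from control of PBK, NEK2, MELK, HMMR and TPX2 stayed past 1.5-fold and in the same direction in each of 12 alternatives that recomputed them. The same held for the fall of AURKA under cantharidin (-1.98 to -1.69) and the rise of BORA under OA (1.20 to 1.76). The fall of BORA under cantharidin ranged from -0.97 to -0.55 and missed 1.5-fold with the normexp background correction. AURKA under OA ranged from -0.18 to 0.33, and its sign was kept in 10 of the 12. MASTL under OA passed 1.5-fold without scaling (0.61) and in no other alternative. The changes of filter and the floor for dim signals could not move any of these values, because the probe used was well above background on every array. For every member except NEK2, which had a second probe, the choice of probe could not move them either. Those alternatives therefore do not test how stable the differences are.

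**Figure D5:**
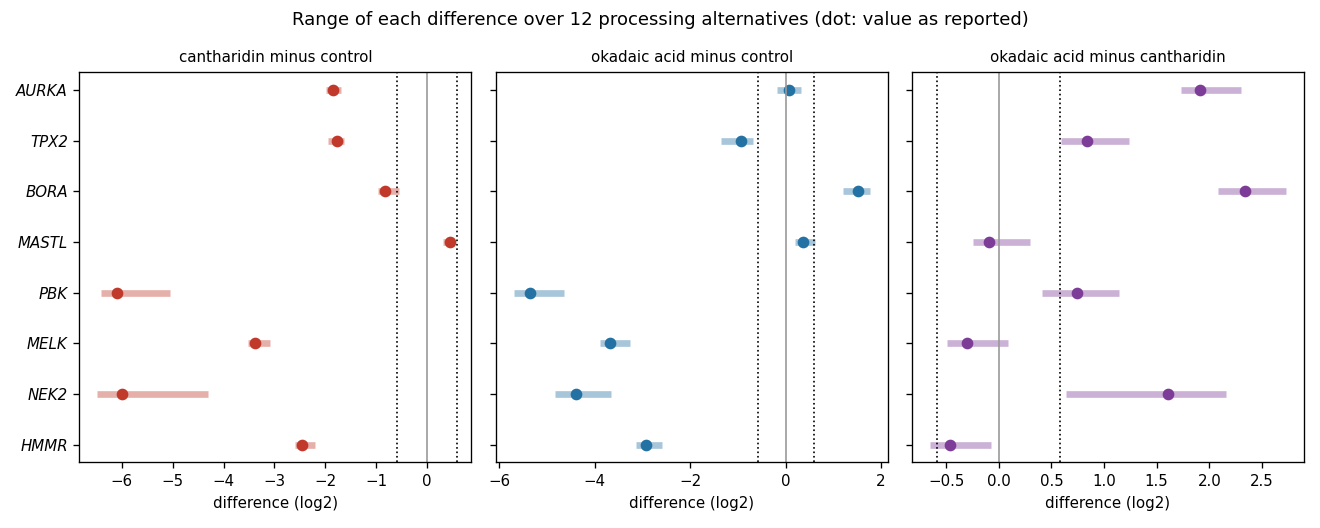
Range of the log2 difference of each gene over 12 processing alternatives (bars) around the value reported (dots), for the 3 comparisons, with dotted lines at 1.5-fold and a grey line at zero. NEK2 under cantharidin has the widest range, -6.48 to -4.31, and stays far below the 1.5-fold line.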

How the data were processed

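For the 3 single-colour arrays, the authors deposited scanner output. Per the file headers, Feature Extraction 11.0.1.1 had subtracted background from the processed intensity and detrended it across the array, without scaling between arrays. A second deposited file gave normalized log2 values, made by a method that is not given in the sources used here. Its columns correlated at 0.998 to 0.999 with log2 intensity of their own arrays. Sample titles gave the groups.

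Outlier spots were dropped, log2 intensities of a probe's spots were averaged, and the array's 75th percentile was subtracted. Accessions without versions were matched to RefSeq (GRCh38.p14), naming 25705 probes. Array annotation used hg19, so only names were taken. The probe of highest mean log2 signal stood for a gene, which was compared if either array of the pair had it well above background. "At least" marks a fold in which the dim side was replaced by the lowest signal well above background on its array, or by its own signal if that was higher. Spot noise was the SD over spots of the 100 probes closest in brightness, out of 949 with at least 8 spots. It gives the precision of a spot and not of a culture, and the number of arrays limits precision. No spot was saturated, and no test was run.

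The members and lists were chosen with earlier results of these data known. Named genes were the members, the largest and smallest cantharidin difference of each role, AURKB, PLK1, FOXM1, ENSA, ARPP19, PPP2R2A, and the 5 genes nearest the median pair of the set. CNTLN, NFYA, LIN9, MARK2 and PRKAA1 are named because their probes disagreed. Not every listed gene with probes that disagreed is named. PPP2R2B had no matched probe. Alternatives changed the background correction (normexp with an offset of 50, using median spot signals), the scaling (array median, the 75th percentile over probes flagged on all 3 arrays, quantile, or none), the filter (none, or flagged on all 3 arrays), the values (the second deposited file), the probe of a gene (median or dimmest), the threshold (2-fold) and dim signals (set to the floor). Centring within 16 blocks of the array was added after seeing the data. The function that counts the calls was first run on simulated differences with large planted changes. That run does not test the filter, the scaling or the choice of probe. Software was Python 3.11.15 (numpy 2.4.6, pandas 2.3.3, matplotlib 3.10.9) and limma 3.58.1 in R 4.3.3.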

Additional observations from a re-analysis of the deposited data

How the results depend on the processing

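No result reversed past the 1.5-fold threshold under the 13 alternatives. Of the counts and medians of the 8 genes and of the listed genes, 205 values were unmoved and 23 moved, and of the differences of single members 230 were unmoved and 58 moved, by more than the spot noise or by more than 1.5 times for a count. For every median, also that of the listed genes, the spot noise used was the median over the 8 genes. It is the noise of a single gene's difference, so smaller moves of a median are counted as unmoved. The unmoved values of single members include those that the filter, the floor or the choice of probe could not change. With normexp the median of the 8 genes was -1.94 for cantharidin, -1.73 for OA and 0.52 for OA against cantharidin. Without scaling, which moved the median of all genes to -0.30, 0.26 and 0.52 in that order, the OA comparison had 2 of the 8 genes higher, a median of -1.68 for the 8 and of 0.058 for the listed genes, whose sign thus changed. The OA against cantharidin comparison then had a median of 1.19 for the 8, and 9 listed genes lower and 33 higher with a median of 0.52. Centring on the array median moved the median of all genes to -0.11 for OA, and with it, as with the deposited values and with centring in 16 blocks, 1 of the 8 genes, HMMR, was called lower under OA than under cantharidin. The 16 blocks, chosen after seeing the data, gave medians of -2.24 for the 8 and -0.39 for the listed genes under OA, and 0.55 for the 8 between the agents. A 2-fold threshold left 3 of the 8 genes higher, and 9 listed genes lower and 12 higher, between the agents. For the listed genes, the OA median was -0.40 with the median over probes and -0.52 with the dimmest probe, and the median between the agents was -0.048 with the dimmest probe, -0.030 with centring on the array median and -0.021 with the median over probes, each a change of sign, and 0.28 with the filter on all 3 arrays. The cause of these moves was not tested. No paired analysis was possible because each group had 1 array. Signals near background limit NEK2 and PBK under both agents. PTPRC and CD3E, markers of other cell types, gave 223 to 405 over the arrays. MELK (264 and 280) and HMMR (298 and 284) on the treated arrays lay in that range. MASTL lay in it in control (276) and cantharidin-treated (342) cells, and was at 421 under OA. How much of such signals is specific to the gene was not tested.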
